A study of Mus musculus with 16 samples.

Results

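Txnip and Klf10 are 2 of the 8252 mouse genes that the Affymetrix U74Av2 array measures with at least 1 probe set assigned to that gene alone. They are described as a pair because their signals were among the highest rises in embryonic stem (ES) cells with 1 mutated copy of Cdk4, the kinase that works with D-type cyclins in G1. Each gene has 2 probe sets, so 4 of the 12488 probe sets of the array are described. The comparison of Cdk4 +/- with E14 cells chose the genes, and its values for them are therefore a description and carry no test. RNA of 16 samples in 6 groups was hybridised, 1 array per sample. The Cdk4 +/- ES line and E14, the +/+ ES line set as its control, both grew without feeder cells and have 3 arrays each. The Abca1 +/- ES line and ESVJ, its +/+ parental line, have 3 arrays each. Both grew on irradiated mouse embryonic fibroblasts, which were removed before about 2 days on gelatin. Livers with 2 arrays per group came from Abca1 +/- mice and +/+ mice, all on a background that mixes 129/SvJ with C57BL6/J. The labels used here give no mouse age or sex, no description of the mutated alleles and no number of cultures. Each ES genotype is 1 named line, so genotype and line cannot be told apart. The p-values cover only the spread among the arrays of a group, which may be technical.

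Txnip encodes an alpha-arrestin that binds reduced thioredoxin and slows glucose uptake at the cell surface. Its transcription is known to follow glucose supply through the paired factors MondoA or ChREBP and Mlx, which bind carbohydrate response elements in its promoter. Klf10, first described as TIEG1, encodes a zinc finger transcription factor of the Kruppel-like family that TGF-beta induces early and that represses Smad7. In mouse liver Klf10 is also known as a target of glucose and of the circadian clock.

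The Txnip promoter is shown because its carbohydrate response element is the best described control region of either gene. RefSeq's sequence for GRCm38.p6 gives, on the plus strand, the 250 bases that end just before the start of the gene, chr3:96557707-96557956. Capitals mark both CACGAG copies of the element, both CCAAT boxes (1 on each strand) and the TATA box.
Txnip promoter: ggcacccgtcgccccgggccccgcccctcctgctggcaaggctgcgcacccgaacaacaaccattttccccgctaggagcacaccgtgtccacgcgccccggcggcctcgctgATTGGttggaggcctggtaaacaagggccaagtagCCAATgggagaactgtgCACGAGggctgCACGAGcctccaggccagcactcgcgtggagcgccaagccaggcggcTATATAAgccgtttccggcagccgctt
The whole element, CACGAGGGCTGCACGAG, lies at chr3:96557872-96557888 and starts at -85 from the gene start. A pair of CACGNG motifs in the same direction with 5 bases of any kind between them, searched on both strands, was present in 15 of 32851 promoter windows of the same length (0.0457%). Pairs in opposite directions were not searched for. CCAAT was present in 33.8% of the windows and TATATAA in 3.04%, each on either strand, and none of these matches overlap in the Txnip window. The letters describe the window and show no binding in these cells.

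Signals are MAS5 intensities on a linear scale, scaled on every array to a 2% trimmed mean of 500, and log2 values are log2(signal + 32). On this scale the 4 ES groups were of similar quality by the ratio of the 3' to the 5' probe set of Gapdh, which rises when RNA is degraded and ran from 0.801 to 1.19 in the 12 ES arrays. In livers that ratio was 4.10 and 1.13 in Abca1 +/- arrays and 0.919 and 0.815 in +/+ arrays, so replicate 1 of the Abca1 +/- livers stood apart. The same ratio of beta-actin was 8.24 in that array, 2.14 in the other Abca1 +/- liver and 1.78 and 1.81 in the +/+ livers. Cdk4 itself was at 3678 ± 209 in Cdk4 +/- cells and 5716 ± 188 in E14 cells (SD, n = 3 each) by its brighter probe set, a log2 difference of -0.63 (SE 0.10, limma adjusted p = 0.00436). Its other probe set had a log2 difference of -0.70 (SE 0.24, adjusted p = 0.104). Abca1 was at 110 ± 14.8 in Abca1 +/- ES cells and 141 ± 38.1 in ESVJ cells (SD, n = 3 each, adjusted p = 0.9997). In livers it was at 627 ± 102 in the Abca1 +/- group and 314 ± 18.5 in the +/+ group (SD, n = 2 each, adjusted p = 0.191), which goes against the label, and its other probe set had a log2 difference of -0.996 there (SE 0.56, adjusted p = 0.366). The livers are therefore called livers labelled Abca1 +/-. The 12 ES cell markers summed to between 34250 and 65010 in ES arrays and to at most 896 in livers. The 9 measured hepatocyte markers summed to at least 209900 in livers and to at most 932 in ES arrays. No marker was at 0 throughout a group.

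Txnip, by its brighter probe set 160547_s_at, was highest in Cdk4 +/- cells and lowest in E14 cells. It had signals of 2261, 2042 and 2194 in Cdk4 +/- arrays, against 643, 918 and 811 in E14 arrays. The groups did not overlap, and the lowest Cdk4 +/- array stood 1.37 times above the highest of the 13 arrays of all other groups, a +/+ liver at 1491. The fitted difference between Cdk4 +/- and E14 was 1.43 on the log2 scale (SE 0.13), a 2.70-fold level with a 95% interval from 2.21 to 3.29. It was the 5th highest of the 7349 probe sets tested in ES cells. The interval takes no account of the choice of the gene on this same comparison, so it is a description only. The other Txnip probe set, 160548_at, did not show this pattern. It had signals of 205, 285 and 241 in Cdk4 +/- arrays, against 233, 271 and 252 in E14 arrays, with overlap and a log2 difference of -0.05 (SE 0.18, 95% interval from -0.44 to 0.34).

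Klf10 showed the higher level in Cdk4 +/- cells by both of its probe sets. Probe set 99602_at had 2089, 2475 and 2403 in Cdk4 +/- arrays, against 824, 907 and 818 in E14 arrays. Probe set 99603_g_at had 1408, 1570 and 1557 in Cdk4 +/- arrays, against 422.5, 446 and 442 in E14 arrays. Neither overlapped between the groups, and the lowest Cdk4 +/- array lay 1.5 and 1.86 times above the highest of the 13 other arrays, an ESVJ array by 99602_at and an Abca1 +/- ES array by 99603_g_at. The fitted log2 differences were 1.42 (SE 0.14), which is 2.67-fold with a 95% interval from 2.17 to 3.29, and 1.72 (SE 0.12), which is 3.29-fold with a 95% interval from 2.75 to 3.94. They ranked 6th and 3rd from the highest. Their intervals too take no account of the choice of the gene on this comparison. Both Klf10 probe sets were designed on the same accession, so they are not independent measurements of the gene. In this comparison 4.91% of all 7349 probe sets passed at a limma adjusted p under 0.05, 24.9% did not overlap between the groups, and in 13% every Cdk4 +/- array lay above every E14 array. In 2.91% every Cdk4 +/- array lay above all 13 others, as it did for 3 of the 4 Txnip and Klf10 probe sets. Since the genes were chosen on this comparison, nothing is read from these shares.

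**Figure D1:**
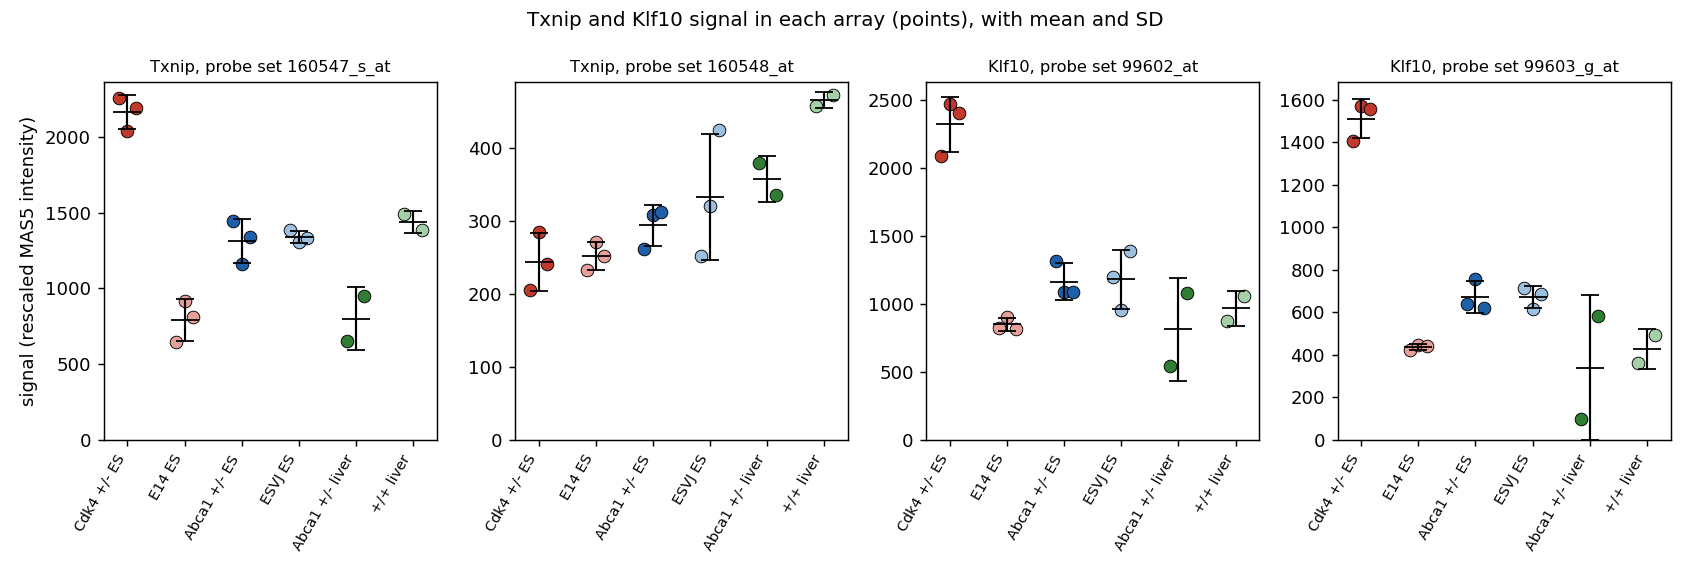
Signal (rescaled MAS5 intensity, linear axis from 0) of the 4 probe sets in each array (points) of the 6 groups, with the mean and SD of each group (bars, n = 3 for ES groups and n = 2 for livers). The 3 Cdk4 +/- arrays lie above all 13 others for Txnip 160547_s_at and both Klf10 probe sets, while Txnip 160548_at is between 205 and 285 in Cdk4 +/- cells and between 233 and 271 in E14 cells.

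Other cell types and RNA quality were measured beside these differences. The 13 measured fibroblast markers summed to between 3009 and 3749 in Cdk4 +/- arrays and between 2891 and 3065 in E14 arrays, of which 6 and 7 had a mean signal of at least 100. The 12 ES cell markers summed to between 41190 and 47380 in Cdk4 +/- arrays and between 34250 and 40420 in E14 arrays, without overlap. Not all of them rose. Dppa5a averaged 12510 in Cdk4 +/- cells and 10380 in E14 cells, and Nanog averaged 6888 and 4542. Lower in Cdk4 +/- cells were Utf1, at 2909 against 3676, and Dppa3, at 248.3 against 324.4. Pou5f1 was at 7033 and 7084. The 11 measured markers of differentiated derivatives summed to between 2890 and 3128 in Cdk4 +/- arrays and between 2369 and 3124 in E14 arrays. The part of these lists in the result was not tested, and in bulk RNA more cells of a type and more RNA per cell cannot be told apart. The Gapdh 3' to 5' ratio was 1.02, 0.973 and 1.03 in Cdk4 +/- arrays and 1.19, 0.900 and 0.907 in E14 arrays. The RNA numbers in the labels run from 306 to 308 for Cdk4 +/- and from 296 to 298 for E14, so preparation and genotype cannot be told apart where such a run was handled together.

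The 2 probe sets of Txnip disagreed and those of Klf10 did not. The Txnip signal ratio of 160547_s_at to 160548_at was 11, 7.16 and 9.09 in Cdk4 +/- arrays, against 2.77, 3.39 and 3.22 in E14 arrays. It was 5.54, 3.76 and 4.30 in Abca1 +/- ES arrays, 5.48, 4.08 and 3.15 in ESVJ arrays, 1.72 and 2.83 in livers labelled Abca1 +/- and 3.26 and 2.94 in +/+ livers. The ratio was thus higher in every Cdk4 +/- array than in any other. The Klf10 ratio of 99602_at to 99603_g_at was 1.48, 1.58 and 1.54 in Cdk4 +/- arrays, against 1.95, 2.03 and 1.85 in E14 arrays. It ran from 1.43 to 2.07 in the 6 Abca1 +/- and ESVJ arrays and was 2.42 and 2.15 in +/+ livers. In livers labelled Abca1 +/- it was 5.60 in replicate 1, the array with the high 3' to 5' ratios, and 1.86 in replicate 2. Over the 12 ES arrays the log2 signals of both probe sets had a Pearson r of -0.07 for Txnip and 0.97 for Klf10. These are descriptions of arrays that share a platform and a scaling and fall into 4 groups. After the mean of each group was removed, r was -0.11 for Txnip and 0.35 for Klf10. Of the 793 genes with exactly 2 tested probe sets, Txnip had the widest gap between its Cdk4 +/- differences, 1.48 on the log2 scale, where the median gap was 0.20. Klf10 had a gap of 0.30, and 34.2% of these genes had a gap at least as wide. The gap uses the comparison that chose the genes and is a description. In the naming of the array's maker the endings _s_at and _g_at mark probe sets whose probes may match more than 1 transcript. Which parts of the transcripts the probes cover was not analysed here.

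**Figure D2:**
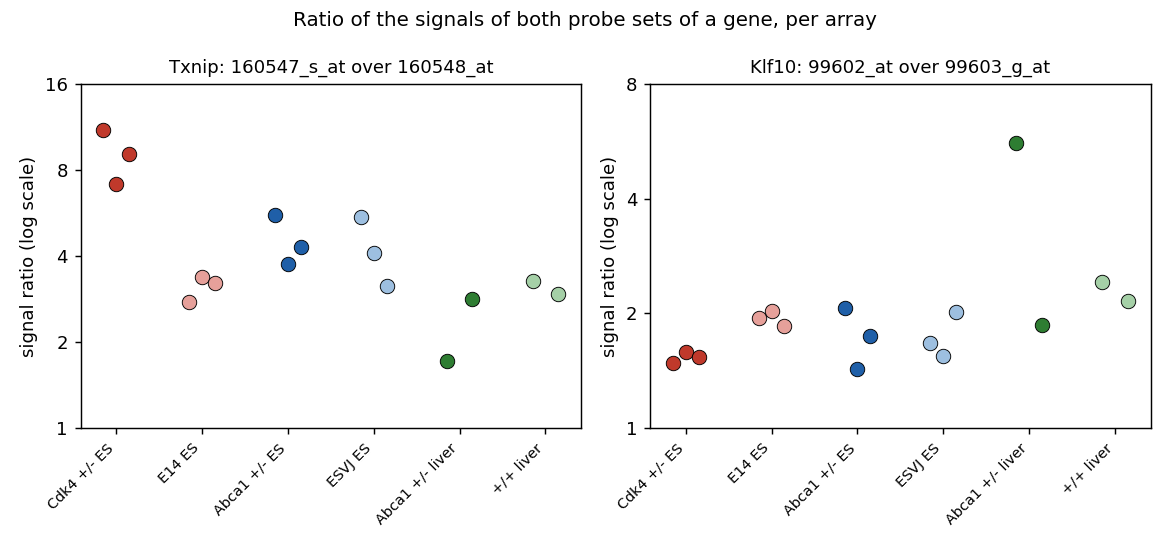
Ratio of the signals of both probe sets of Txnip (left) and of Klf10 (right) in each of the 16 arrays, on log axes, by group. For Txnip the 3 Cdk4 +/- arrays (7.16 to 11) lie above all others, and for Klf10 1 liver labelled Abca1 +/- stands at 5.60.

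The level in E14 cells was lower than in ESVJ cells by 1 Txnip probe set and both Klf10 probe sets. Txnip 160547_s_at averaged 791 ± 138 in E14 cells, against 1343 ± 39.4 in ESVJ cells (SD, n = 3 each), a log2 difference of -0.75 (SE 0.13). Klf10 averaged 850 ± 49.5 in E14 cells, against 1182 ± 216 in ESVJ cells by 99602_at (SD, n = 3 each, log2 difference -0.45, SE 0.14). By 99603_g_at it averaged 437 ± 12.6 in E14 cells, against 673 ± 50.9 in ESVJ cells (SD, n = 3 each, log2 difference -0.59, SE 0.12). None of these 3 probe sets overlapped between E14 and ESVJ, where 52% of all tested probe sets did not overlap, 28.9% with E14 below ESVJ, and 42.6% passed. Txnip 160548_at overlapped, with a log2 difference of -0.34 (SE 0.18). These E14 values entered the choice of the genes, so they carry no test. Against the mean of the 6 feeder-grown arrays, Txnip 160547_s_at was 1.63 times as high in Cdk4 +/- cells and 0.595 times as high in E14 cells. Klf10 was 1.98 and 2.25 times as high in Cdk4 +/- cells and 0.724 and 0.649 times as high in E14 cells by its 2 probe sets. By these 3 probe sets the Cdk4 +/- cells were above the feeder-grown cells and the E14 cells below them. By Txnip 160548_at both were below, at 0.779 times the feeder-grown mean in Cdk4 +/- cells and 0.804 times in E14 cells. Markers differed between these lines too. The 12 ES cell markers summed to between 34250 and 40420 in E14 arrays and between 56960 and 64570 in ESVJ arrays. The 7 measured markers of endothelium, bile duct and stellate cells, which include the keratin genes Krt19 and Krt7, summed to between 3621 and 4036 in E14 arrays and between 450.8 and 562.7 in ESVJ arrays. Krt19 averaged 2562 in E14 cells and 54.45 in ESVJ cells, and Krt7 averaged 923.1 and 20.48. Pecam1 went the other way, at 178.5 in E14 cells and 259.4 in ESVJ cells, as did Des, at 63.25 and 95.35. Neither list overlapped, and their part in the result was not tested. That second list summed to between 3816 and 3909 in Cdk4 +/- arrays, within the E14 range. The 13 measured fibroblast markers overlapped, at 2891 to 3065 in E14 arrays and 2478 to 2906 in the feeder-grown ESVJ arrays. Their part in the result was not tested either. The comparisons of Cdk4 +/- with E14 and of E14 with ESVJ share the E14 arrays.

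In Abca1 +/- ES cells neither gene differed from ESVJ cells beyond the spread of the arrays. Txnip 160547_s_at had 1449, 1159 and 1340 in Abca1 +/- arrays, against 1385, 1307 and 1336 in ESVJ arrays. The log2 difference was -0.03 (SE 0.13, limma adjusted p = 0.9997), with a 95% interval from 0.80-fold to 1.19-fold. Txnip 160548_at was at -0.14 (SE 0.18). Klf10 had 1318, 1088 and 1086 in Abca1 +/- arrays, against 1198, 958 and 1390 in ESVJ arrays by 99602_at. The log2 difference was -0.01 (SE 0.14), with a 95% interval from 0.81-fold to 1.22-fold. By 99603_g_at it had 637, 759 and 621 in Abca1 +/- arrays, against 716, 617 and 686 in ESVJ arrays, a log2 difference of -0.01 (SE 0.12). The adjusted p was 0.9997 for each of the 4, and all 4 overlapped between the groups. In this comparison 0.0272% of all probe sets passed and 7.93% did not overlap. The Abca1 +/- and ESVJ arrays were not used to choose the genes. The spread behind the SE and p-values was shared in 1 fit with the Cdk4 +/- and E14 arrays, which were.

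**Figure D3:**
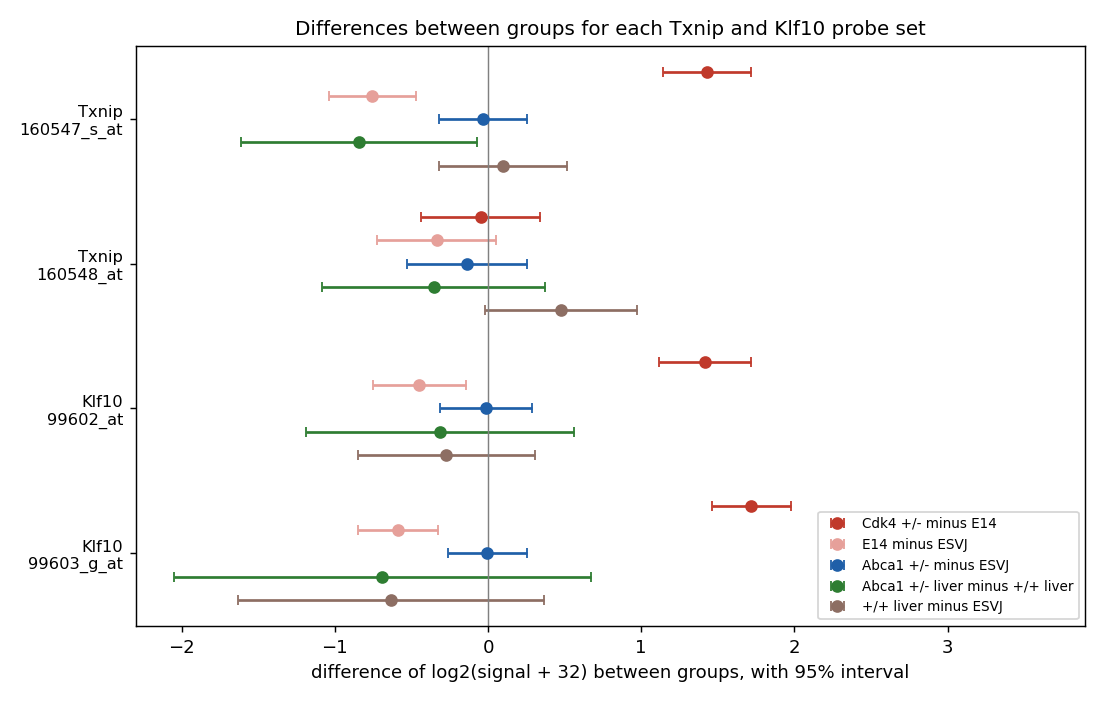
Difference of log2(signal + 32) between groups for each probe set (points) with its 95% interval from the limma fit (bars). The first 2 comparisons of each probe set use the E14 arrays, which entered the choice of the genes. Their intervals take no account of that choice and carry no test. In Abca1 +/- ES cells against ESVJ all 4 differences lie between -0.14 and -0.01.

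In livers, Txnip was lower in both arrays labelled Abca1 +/-, and the difference did not pass. Probe set 160547_s_at had 654 and 949 in livers labelled Abca1 +/-, against 1491 and 1389 in +/+ livers. The log2 difference was -0.84 (SE 0.34, unadjusted p = 0.0345, limma adjusted p = 0.235), and the 95% interval ran from 0.33-fold to 0.95-fold. Probe set 160548_at had 380 and 335 in livers labelled Abca1 +/-, against 458 and 473 in +/+ livers, a log2 difference of -0.35 (SE 0.33, adjusted p = 0.603). Neither Txnip probe set overlapped between the livers, as was the case for 51.7% of the 7160 probe sets tested there, and 21.4% did not overlap with the lower signals in livers labelled Abca1 +/-. Klf10 overlapped by both probe sets. It had 544 and 1082 in livers labelled Abca1 +/-, against 876 and 1058 in +/+ livers by 99602_at (log2 difference -0.31, SE 0.39, adjusted p = 0.723). By 99603_g_at it had 97.2 and 582 in livers labelled Abca1 +/-, against 361 and 493 in +/+ livers (log2 difference -0.69, SE 0.61, adjusted p = 0.587). The low value of each pair was that of replicate 1, the liver with the Gapdh ratio of 4.10. The 7 measured markers of endothelium, bile duct and stellate cells summed to between 1733 and 1892 in livers labelled Abca1 +/- and between 1191 and 1398 in +/+ livers, without overlap. Its endothelial genes differed unequally. Cdh5 averaged 388 in livers labelled Abca1 +/- and 113 in +/+ livers, Kdr 389 and 286, and Pecam1 212 and 202. The 7 measured blood and immune markers overlapped, at 17440 to 22720 in livers labelled Abca1 +/- and 17810 to 20850 in +/+ livers. The part of these markers and of the 3' to 5' ratios in the result was not tested. Without replicate 1 Klf10 was at 0.16 and 0.43 on the log2 scale and Txnip 160547_s_at at -0.58. Without replicate 2 Txnip 160547_s_at was at -1.10 and Klf10 99603_g_at at -1.81. Each of these fits leaves 1 liver labelled Abca1 +/-, so only sizes are given. In the fit without replicate 2 it is the liver with the Gapdh ratio of 4.10. With all 16 arrays in 1 fit Txnip 160547_s_at was 1 of 1970 probe sets that passed (adjusted p = 0.00582). In the liver fit 0.014% of all probe sets passed. The median of all probe sets was 0.10 here, and relative to it Txnip 160547_s_at was at -0.95.

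The difference between livers labelled Abca1 +/- and +/+ livers was set against the difference between Abca1 +/- and ESVJ cells as an interaction. Txnip 160547_s_at had a log2 difference of -0.84 in livers and -0.03 in ES cells, an interaction of -0.81 (SE 0.27, unadjusted p = 0.0117, limma adjusted p = 0.116). The other 3 probe sets had interactions from -0.68 to -0.22 (adjusted p from 0.580 to 0.745). None of the 4 passed, where 2.38% of all 7883 probe sets did. Without replicate 1 of the livers labelled Abca1 +/- the Klf10 interactions turned to 0.17 and 0.44 and Txnip 160547_s_at was at -0.55. Without replicate 2 Txnip 160547_s_at was at -1.07 and Klf10 99603_g_at at -1.81. Here too each fit leaves 1 liver labelled Abca1 +/-, so only sizes are given.

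Between +/+ livers and ESVJ cells, neither gene passed, although 67.4% of all probe sets did. Txnip 160547_s_at averaged 1440 ± 72.2 in +/+ livers (SD, n = 2) and 1343 ± 39.4 in ESVJ cells (SD, n = 3), a log2 difference of 0.10 (SE 0.19, limma adjusted p = 0.670). Its 95% interval ran from 0.80-fold to 1.43-fold. Txnip 160548_at averaged 465 ± 11 in +/+ livers and 332 ± 86.5 in ESVJ cells (log2 difference 0.48, SE 0.23, adjusted p = 0.0824). It passed with quantile normalization (0.92, adjusted p = 0.00270) and without ESVJ replicate 3 (0.65, adjusted p = 0.0265). Klf10 averaged 967 ± 129 in +/+ livers and 1182 ± 216 in ESVJ cells by 99602_at (log2 difference -0.27, SE 0.27, adjusted p = 0.383). By 99603_g_at it averaged 427 ± 92.9 in +/+ livers and 673 ± 50.9 in ESVJ cells (log2 difference -0.63, SE 0.46, adjusted p = 0.241), and passed when only those 2 groups were fitted (adjusted p = 0.0153). The spread in the main fit also includes the livers labelled Abca1 +/-, at 97.2 and 582 by this probe set. The array at 97.2 is the liver with the Gapdh ratio of 4.10. The +/+ livers and ESVJ cells overlapped for 99602_at and not for the other 3 probe sets, where 79.8% of all probe sets did not overlap. The median of all probe sets was -0.38 in this comparison and -0.09 with quantile normalization, under which Klf10 99602_at was at 0.02. Relative to the median of -0.38, Txnip was at 0.48 and 0.85 and Klf10 at 0.11 and -0.25 by their 2 probe sets.

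The order of the 6 groups was similar for 3 of the 4 probe sets. By Txnip 160547_s_at it ran from Cdk4 +/- cells over +/+ livers, ESVJ cells and Abca1 +/- ES cells to livers labelled Abca1 +/- and E14 cells. Among neighbours in this order, ESVJ overlapped with Abca1 +/- ES cells and livers labelled Abca1 +/- with E14 cells. By both Klf10 probe sets Cdk4 +/- cells came first, then ESVJ cells and then Abca1 +/- ES cells, and livers labelled Abca1 +/- came last. The mean of the Cdk4 +/- cells was 1.96 and 2.25 times that of ESVJ, while ESVJ and Abca1 +/- ES cells overlapped by both probe sets. E14 cells and +/+ livers, between them, overlapped and changed places between the Klf10 probe sets. By Txnip 160548_at +/+ livers came first and Cdk4 +/- cells last, and all neighbours but the 2 liver groups overlapped. From the lowest to the highest of the 16 arrays the signal spanned 3.52-fold and 2.30-fold for the 2 Txnip probe sets and 4.55-fold and 16.2-fold for the 2 Klf10 probe sets. The widest of these rests on the liver with a signal of 97.2.

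**Figure D4:**
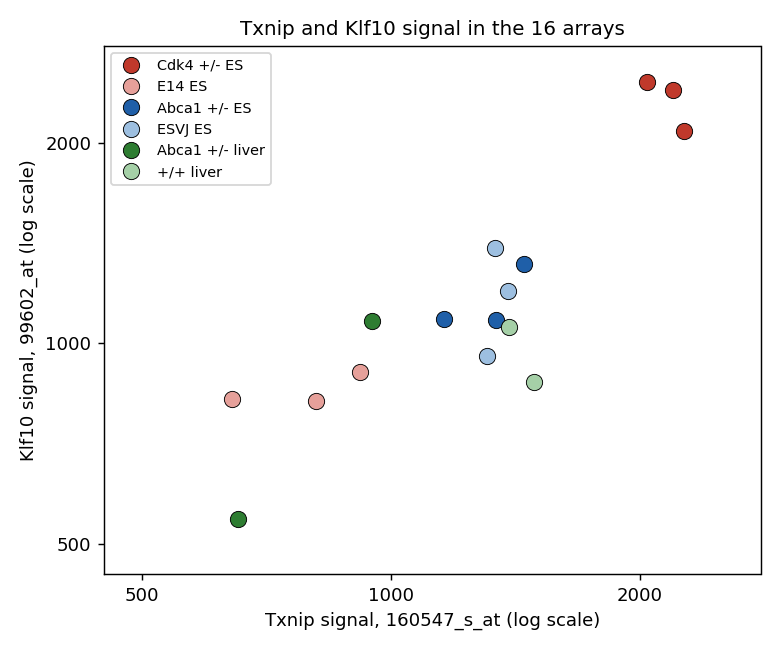
Signal of Txnip (160547_s_at, x) against Klf10 (99602_at, y) in the 16 arrays, both on log axes, coloured by group. The 3 Cdk4 +/- arrays lie at or above 2042 on both axes, and the 3 E14 arrays lie between 643 and 918 for Txnip and between 818 and 907 for Klf10.

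Txnip and Klf10 had similar patterns over the ES arrays. Their brighter probe sets had a Pearson r of 0.92 over the log2 signals of the 12 ES arrays, which follows the 4 groups, and of 0.29 once the mean of each group was removed. Among 5590 genes, Klf10 ranked second by likeness to Txnip, and Txnip second by likeness to Klf10. Both genes were chosen for their rise in Cdk4 +/- over E14 cells, whose arrays are among these 12. Their likeness was thus partly fixed by the choice, and nothing is read from these ranks. The other genes most like Txnip were Gnpda1, an enzyme of glucosamine use (r = 0.94), Gadd45a, a growth arrest and DNA damage gene (0.92), Prc1, a protein of the spindle midzone (0.91), and the T-box gene Tbx3 (0.91). Those most like Klf10 were Gadd45a (0.94), Plekha5, which encodes a pleckstrin homology domain protein (0.91), the stress kinase gene Map2k4 (0.91) and the casein kinase gene Csnk1a1 (0.90). Gadd45a, the only gene other than the pair itself near the top for both, had 2916, 2481 and 2901 in Cdk4 +/- arrays, against 1383, 1347 and 1306 in E14 arrays. It averaged 1783 ± 61.4 in Abca1 +/- ES cells and 1683 ± 187 in ESVJ cells (SD, n = 3 each). Map2k4 averaged 644.5 ± 8.27 in Cdk4 +/- cells and 353 ± 47.7 in E14 cells, and Gnpda1 averaged 1483 ± 142 in Cdk4 +/- cells and 929 ± 37.4 in E14 cells (SD, n = 3 each). All these r values describe 12 arrays that share a scaling and carry no test.

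The genes around both members were read from lists of pathway genes in the same fit of Cdk4 +/- against E14 cells. Over all 5590 genes, each by its brightest probe set, 2.84% passed as higher and 2.45% as lower, with a median log2 difference of 0.02. In the thioredoxin system 17 of 25 listed genes were measured, none rose and 1 fell, with a median of -0.02. The gene that fell was Txnrd1, the cytosolic thioredoxin reductase, which had 1773, 2181 and 1895 in Cdk4 +/- arrays, against 2362, 3090 and 2914 in E14 arrays (log2 difference -0.51, SE 0.14, adjusted p = 0.0450). It passed in 2 of the 6 fits without 1 of these arrays (adjusted p up to 0.180). Srxn1, sulfiredoxin, was at 0.65 (adjusted p = 0.0655), the peroxiredoxin gene Prdx4 at -0.34 (adjusted p = 0.140) and mitochondrial thioredoxin Txn2 at -0.32 (adjusted p = 0.1405). Txn1, the thioredoxin that Txnip binds, was looked up after the values were seen and was at 0.17 (SE 0.13, adjusted p = 0.4825). None of the 5 other listed alpha-arrestin genes had a probe set assigned to it alone.

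Of 25 listed glucose-responsive factors and targets 17 were measured, of which 1 rose and none fell, with a median of -0.09. It was Mnt, a partner of Max that represses Myc targets and can pair with Mlx (log2 difference 0.71, SE 0.17, adjusted p = 0.0310), which passed in 1 of 6 fits without 1 array (adjusted p up to 0.131). The lipid synthesis gene Fasn was at -0.49 (adjusted p = 0.0627), the pyruvate kinase gene Pklr at 0.86 (adjusted p = 0.223), the transketolase gene Tkt at -0.68 (adjusted p = 0.239) and Gpd1 at -0.78 (adjusted p = 0.256). Mlx itself and the glucose transporter gene Slc2a1, both looked up after the values were seen, were at -0.28 (adjusted p = 0.330) and -0.31 (adjusted p = 0.366). In the list of fasting and insulin responsive liver genes 10 of 20 were measured in ES cells and 1 rose, none fell. It was Cpt1a, the gate of fatty acid entry into mitochondria, with 751, 897.5 and 762 in Cdk4 +/- arrays, against 447, 523.5 and 345 in E14 arrays (log2 difference 0.84, SE 0.16, adjusted p = 0.0108). It passed in all 6 fits without 1 array. The list median was 0.06, and 2 genes of the list passed without Cdk4 +/- replicate 3 and 4 without E14 replicate 3.

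Of 36 listed TGF-beta ligands, receptors and SMADs 19 were measured, of which 1 rose and 1 fell, with a median of 0.20. Smad1, a signal transducer of BMP receptors, rose (log2 difference 0.64, SE 0.16, adjusted p = 0.0363), and the activin receptor gene Acvr2b fell by 0.70 (SE 0.14, adjusted p = 0.0153). Each passed in 2 of 6 fits without 1 array, with adjusted p up to 0.159 and 0.0761. Lefty1, an inhibitor of Nodal, was at -0.85 (adjusted p = 0.0524) and the ligand gene Tgfb2 at 0.51 (adjusted p = 0.266). Smad7, which Klf10 represses, was looked up after the values were seen and was at 0.20 (SE 0.20, adjusted p = 0.638). Of 31 listed early targets of TGF-beta 28 were measured, of which 5 rose (17.9%) and none fell, with a median of 0.23. Gadd45a rose by 1.02 (SE 0.11, adjusted p = 3.96e-04) and Tgif1, a corepressor of SMADs, by 0.715 (SE 0.12, adjusted p = 0.00443). Tgif1 had 4474, 5368 and 4069 in Cdk4 +/- arrays, against 2929, 2777 and 2679 in E14 arrays. The stress factor gene Atf3 rose by 1.2 (adjusted p = 0.0104), the clock-linked repressor gene Bhlhe40 by 1.01 (adjusted p = 0.0197) and the BMP target Id3 by 0.75 (adjusted p = 0.0208). Gadd45a and Tgif1 passed in all 6 fits without 1 array, Atf3 in 4, Id3 in 3 and Bhlhe40 in 2 (adjusted p up to 0.0761). Fosl1, a FOS family gene, was at -1.02 (adjusted p = 0.0533). Id2 was at 0.46 (adjusted p = 0.0588), Sgk1 at 0.34 (adjusted p = 0.141) and Tgfbi at 0.56 (adjusted p = 0.156).

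Among the other Kruppel-like and Sp factors 12 of 24 were measured, of which 2 rose and none fell, with a median of 0.23. Klf4, a core factor of ES cells, had 2839, 2435 and 2568 in Cdk4 +/- arrays, against 1466, 1622 and 1420 in E14 arrays (log2 difference 0.785, SE 0.14, adjusted p = 0.00750), and passed in all 6 fits without 1 array. Klf9, another factor of the family that binds GC boxes, had 3642, 1873 and 2723 in Cdk4 +/- arrays, against 1222, 1543 and 1229 in E14 arrays. It rose by 0.98 on the log2 scale (SE 0.22, adjusted p = 0.0221). Without 1 array it was at 0.757 to 1.23 and passed in 3 of 6 fits (adjusted p up to 0.105). Klf2 was at 0.76 (adjusted p = 0.0655), Klf6 at 0.46 (adjusted p = 0.139) and Klf5 at 0.25 (adjusted p = 0.267). The counts of genes that passed moved with single arrays. Without Cdk4 +/- replicate 1, and likewise without Cdk4 +/- replicate 3, they were 0 for the thioredoxin system, the glucose-responsive genes and the TGF-beta ligands, receptors and SMADs, 2 for the early targets of TGF-beta and 1 for the Kruppel-like and Sp factors. Without E14 replicate 1 or 2 they were 0 for the glucose-responsive genes and for the ligands, receptors and SMADs. They were also 1 for the Kruppel-like and Sp factors without E14 replicate 1 and 0 for the thioredoxin system without E14 replicate 2. Without E14 replicate 3 they were 2 each for the thioredoxin system and the glucose-responsive genes. In Abca1 +/- ES cells against ESVJ and in livers labelled Abca1 +/- against +/+ livers, 0 genes of these 6 lists passed with limma. Over all genes 0 passed in that ES comparison, where 241 of 7349 probe sets had an unadjusted p under 0.05, and 1 passed in livers, where 1321 of 7160 probe sets did.

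**Figure D5:**
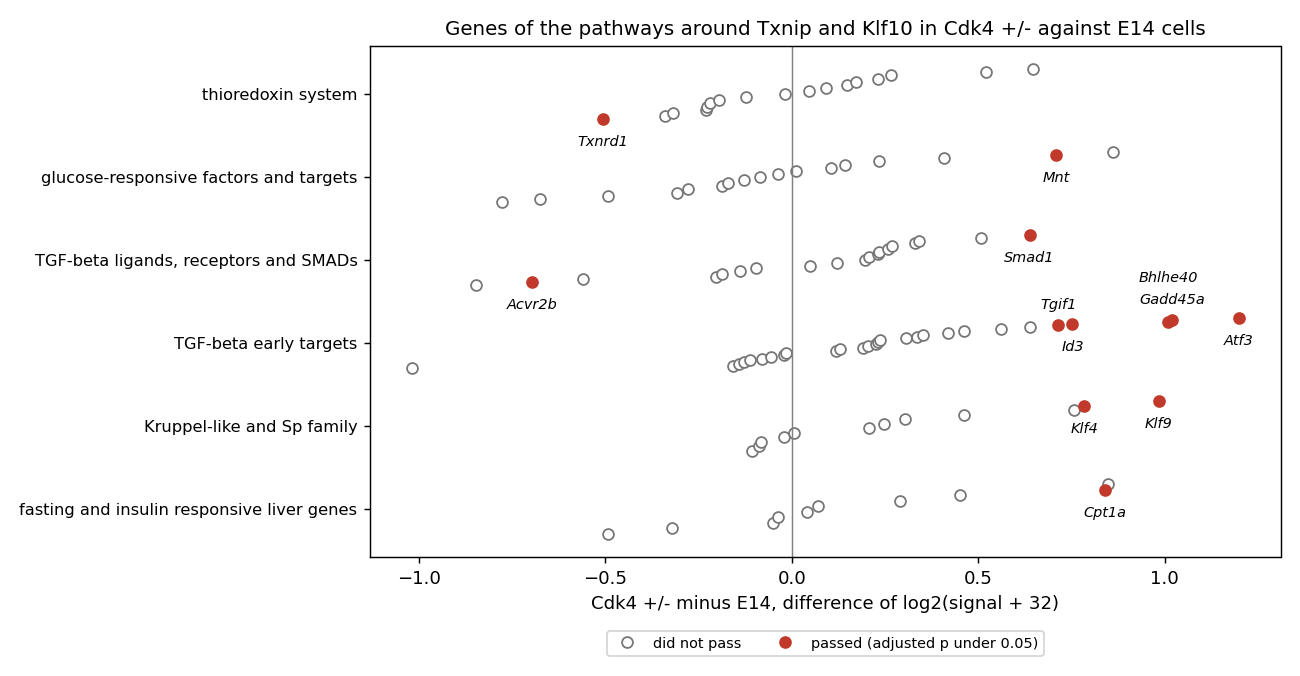
Difference of log2(signal + 32) between Cdk4 +/- and E14 cells for each measured gene of 6 lists (points), Txnip and Klf10 left out. Filled points passed at a limma adjusted p under 0.05 and are named; the 5 early targets of TGF-beta that passed lie between 0.715 and 1.2.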

How the data were processed

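Total RNA of 16 mouse samples was hybridised to Affymetrix U74Av2 arrays. The deposited values are signal intensities that the authors made with Affymetrix MAS5.0 at its default settings, per the labels. All arrays arrived with nearly the same trimmed mean. Each was rescaled to a 2% trimmed mean of 500, and log2(signal + 32) was used for all tests and correlations. The 66 control probe sets and probe sets with a mean signal under 100 over the arrays of a fit were left out. Of 12488 probe sets 10855 were assigned to 1 gene symbol, 396 to several and 1237 to none. Differences between groups were fitted by limma 3.58.1 (R 4.3.3, lmFit and eBayes with an intensity trend), with Benjamini-Hochberg adjustment over all tested probe sets and a threshold of 0.05. The 4 ES groups shared 1 fit, the 4 livers another, and comparisons of liver with ES cells used a fit of the Abca1 +/- and +/+ arrays of both. The procedure was tested on simulated data.

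A gene was read by its brightest probe set. Named are the members, the targeted genes and, from each list, the genes that passed in the Cdk4 +/- comparison and up to 4 others with the smallest unadjusted p; Txn1, Mlx, Slc2a1, Smad7 and the genes named for +/+ livers against ESVJ were added after their values were seen. The likeness of genes was Pearson's r over the 12 ES arrays, and the 5 most like each member are given. The members and lists were chosen with earlier results of these data known. The alternatives were quantile normalization, the deposited scale, other pseudocounts, other filters, no trend, other sets of arrays in the fit and each array left out. Array number limits the precision. The promoter sequence is RefSeq's, and its table held Txnip. No date or batch is given in the labels.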

Additional observations from a re-analysis of the deposited data

How the results depend on the processing

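In Cdk4 +/- minus E14, Txnip 160547_s_at stayed between 1.295 and 1.541 on the log2 scale with 1 array left out, Klf10 99602_at between 1.368 and 1.488 and Klf10 99603_g_at between 1.69 and 1.767. The last was 1.787 with a pseudocount of 1 and 1.585 with one of 100. Txnip 160548_at ran from -0.1538 to 0.05559 with 1 array left out, positive without Cdk4 +/- replicate 1. The 361 probe sets that passed became 196 with no filter, 227 with no trend, 174 with only those groups, 35 with all 16 arrays, and 68 (without Cdk4 +/- replicate 1) to 521 (without E14 replicate 3). Abca1 +/- minus ESVJ, with 2 probe sets passing, gave 1 with no filter, with a filter of 200 and with only those groups, 0 with all 16 arrays, and 1 with any array left out. There, with 1 array left out, Txnip ran from -0.1041 to 0.05281 and from -0.3023 to 0.03843 by its probe sets, and Klf10 from -0.1509 to 0.1099 and from -0.09195 to 0.04683. In livers 1 probe set passed, against 0 with quantile normalization or no trend, 3 with no filter, 1970 with all 16 arrays, and 9 to 1653 without Abca1 +/- replicate 1 or 2, where the lone array is assumed to vary like the other group. Txnip 160547_s_at passed with all 16 arrays (-0.8429) and ran from -1.101 to -0.5847 with 1 array left out. Klf10 ran from -0.7885 to 0.1629 and from -1.814 to 0.4349, positive without Abca1 +/- replicate 1. The difference of the liver and ES effects ran from -1.068 to -0.5512 for Txnip 160547_s_at, and from -0.7766 to 0.1748 and from -1.809 to 0.4402 for Klf10. In +/+ liver minus ESVJ, quantile normalization gave 0.9163 for Txnip 160548_at, which passed, and 0.01841 for Klf10 99602_at. Klf10 99603_g_at passed at -0.6323 with only those groups, and Txnip 160548_at ran from 0.3107 to 0.6514 with 1 array left out. The share of higher among all calls there was 34.9% (1852 higher, 3462 lower), against 45.5% with quantile normalization (2494 higher, 2986 lower). Where a value moved, the cause was not tested. No paired analysis was possible because the labels give no replicate numbers.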

Other observations

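The pathway lists were also read between +/+ livers and ESVJ cells, where most genes of the array passed. Their counts stand beside that background, and no list was tested against it. Over all 5957 genes tested with limma, 1440 were higher and 2675 lower in +/+ livers, with a median log2 difference of -0.42. Of 17 measured genes of the thioredoxin system 10 were higher and 3 lower, with a median of 0.71, among them the methionine sulfoxide reductase gene Msrb1 at 4.08 and Prdx4 at 2.30. Of 12 measured fasting and insulin responsive genes 8 were higher and 2 lower, with a median of 1.83, among them Tat at 7.49 and the gluconeogenic gene Pck1 at 6.76. Of 19 measured glucose-responsive genes 5 were higher and 13 lower, with a median of -1.31, among them Pkm at -6.36 and Slc2a1 at -5.78. Of 12 measured Kruppel-like and Sp genes 0 were higher and 9 lower, with Klf5 at -5.48 and Klf4 at -5.00. Of 25 early targets of TGF-beta 2 were higher and 14 lower, with Gadd45a at -4.29. Of 18 TGF-beta ligands, receptors and SMADs 2 were higher and 12 lower, with a median of -1.42, among them Gdf3 at -3.84 and Nodal at -3.11.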
